A study of Mus musculus with 16 samples.

Results

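The genes of the ATF4 program were measured in RAW264.7 cells, a mouse macrophage line, after knockdown of lipid transport genes. The 37 genes were chosen by symbol and comprise 6 transcription factors, 8 kinases and feedback regulators, 11 enzymes of serine, one-carbon and amino acid synthesis, 7 amino acid transporters and 5 cytosolic tRNA synthetases. All 37 were found among 55665 gene records and all 37 passed the filter on low counts, as did 13107 genes in all. A second record with the symbol Ddit3 held 0 counts in every library and was not used.

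The study sequenced mRNA from 16 libraries, 4 each of ORP5/8 KD, ATP11A/C KD, CDC50A KD and Parental cells, collected on the day after plating. ORP5 and ORP8 (genes Osbpl5 and Osbpl8) are lipid transfer proteins, ATP11A is a phospholipid flippase of the plasma membrane, and CDC50A (Tmem30a) is the subunit that such flippases need. Names of the KD libraries start with the letters "sh", left unexplained by the labels. Parental cells carry no named construct, and none of the libraries analysed here had a non-targeting one. Nothing in the labels says that the 4 libraries of a group came from separate cultures, so the error behind each p-value is that between libraries and could be technical.

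When amino acids run short or the endoplasmic reticulum is stressed, kinases such as GCN2 and PERK phosphorylate the initiation factor eIF2-alpha. Most translation then slows, while the ATF4 mRNA is translated more. ATF4 pairs with C/EBP proteins on composite promoter elements and raises transcription of genes for amino acid synthesis, uptake and tRNA charging, and of regulators such as CHOP and TRIB3. Transcript counts do not measure that translation step.

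Library totals lay between 24020891 and 41543050 counts. Among the targeted genes, Osbpl8 averaged 99.1 ± 8.17 CPM (counts scaled to a common library size) in ORP5/8 KD, 127 ± 8.99 in ATP11A/C KD, 116 ± 4.41 in CDC50A KD and 337 ± 5.84 in Parental cells (SD, n = 4 each), and was thus lower in every KD group. Atp11a averaged 53.3 ± 0.604 CPM in ORP5/8 KD cells, 21.4 ± 0.843 in ATP11A/C KD cells, 43.1 ± 1.36 in CDC50A KD cells and 61.4 ± 1.91 in Parental cells. Tmem30a averaged 130 ± 10.4 CPM in ORP5/8 KD, 142 ± 13.1 in ATP11A/C KD, 127 ± 5.8 in CDC50A KD and 162 ± 4.83 in Parental cells, so its level did not single out the libraries labelled CDC50A KD. All 7 macrophage markers exceeded 1 CPM in every group, and their summed level was 6715 to 7106 CPM in ORP5/8 KD, 5392 to 5800 in ATP11A/C KD, 6305 to 6571 in CDC50A KD and 10335 to 11016 in Parental libraries. All 4 epithelial markers were at 0, and of 4 fibroblast and 4 lymphocyte markers only Col1a1 in ATP11A/C KD and Cd3d in ORP5/8 KD cells had any count. The mitochondrial share of counts was 1.52 to 1.77% in ORP5/8 KD, 1.36 to 1.78% in ATP11A/C KD, 1.42 to 1.76% in CDC50A KD and 1.08 to 1.26% in Parental libraries. The most abundant macrophage marker was Lyz2, at 4168 CPM in ORP5/8 KD cells, 2582 in ATP11A/C KD cells, 2859 in CDC50A KD cells and 7207 in Parental cells. Without it, the sum of the other 6 was 2675 to 2831 CPM in ORP5/8 KD, 2808 to 3257 in ATP11A/C KD, 3462 to 3627 in CDC50A KD and 3362 to 3566 in Parental libraries, so the CDC50A KD and Parental ranges overlapped. Of the 7 markers, 1 rose and 6 fell in ORP5/8 KD cells, 1 rose and 5 fell in ATP11A/C KD cells, and 2 rose and 3 fell in CDC50A KD cells. Lyz2 was lower and the mitochondrial share higher in every KD group than in Parental cells, and their part in the results was not tested. In such bulk samples, fewer cells of a type and less RNA per cell cannot be told apart.

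Most of the 37 genes were lower in ORP5/8 KD than in Parental cells, and most were higher in CDC50A KD than in Parental cells. These were partly different genes. Of the 37, 17 were called both ways, lower in ORP5/8 KD and higher in CDC50A KD cells. How many of all tested genes were called so was not counted. The median change in ATP11A/C KD cells lay between. In ORP5/8 KD cells, 25 of 37 genes fell and 6 rose at an adjusted p under 0.05 in edgeR's quasi-likelihood test, where 24.3% of all tested genes fell and 22% rose. Of the 37, 12 rose and 5 fell in ATP11A/C KD cells, where 17.4% of all tested genes rose and 20.2% fell. In CDC50A KD cells 25 rose and 3 fell, where 24.3% of all tested genes rose and 26.1% fell. The median log2 fold change of the 37 genes was -0.28 in ORP5/8 KD cells, 0.07 in ATP11A/C KD cells and 0.26 in CDC50A KD cells, while over all genes tested it was 0.02 in ORP5/8 KD cells, 0.01 in ATP11A/C KD cells and -0.01 in CDC50A KD cells. The 3 comparisons share the 4 Parental libraries. All 4 ORP5/8 KD libraries lay below all 4 Parental libraries for 24 of the 37 genes and above them for 6, where 23.5% of all tested genes lay below and 20.5% above. All 4 ATP11A/C KD libraries lay above the Parental libraries for 10 genes and below for 6, where 14.3% of all tested genes lay above and 19% below. All 4 CDC50A KD libraries lay above for 24 genes and below for 2, where 23.2% of all tested genes lay above and 24.8% below.

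**Figure D1:**
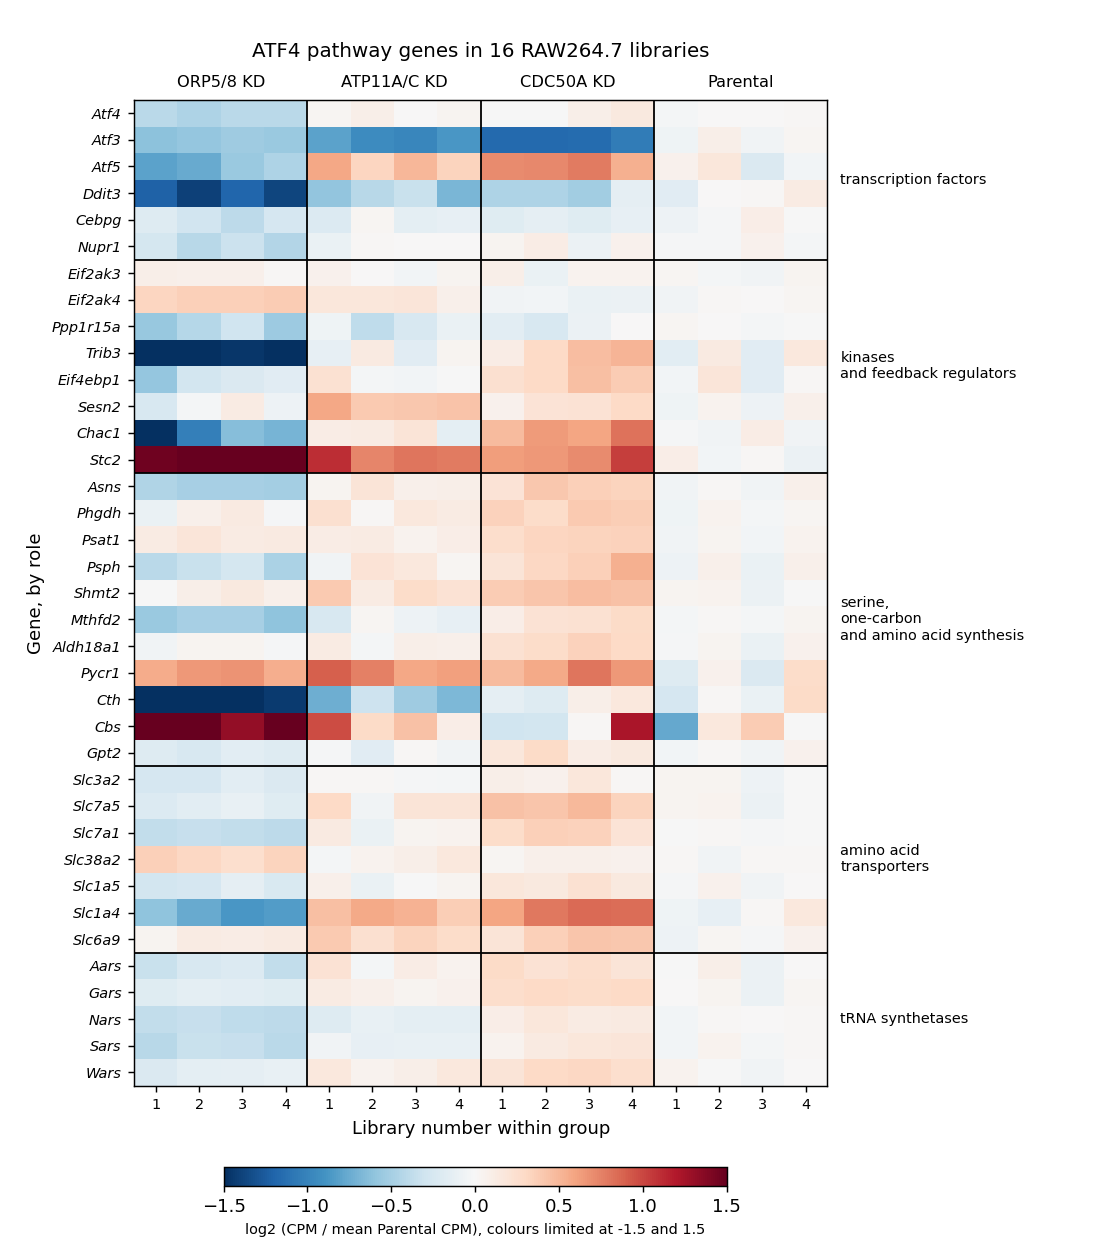
Level of each of the 37 genes (rows, by role) in each of the 16 libraries (columns, grouped as ORP5/8 KD, ATP11A/C KD, CDC50A KD and Parental), coloured by its log2 difference from the Parental mean. Most rows are lower in the 4 ORP5/8 KD libraries, and most, in part other rows, are higher in the 4 CDC50A KD libraries. Stc2 is higher in all KD libraries and Atf3 is lower in all of them.

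The composite element that ATF4 binds with C/EBP proteins was searched in promoter windows of the 37 genes. RefSeq windows, from 250 bases before to 50 bases after the start on GRCm38.p6, were matched for 31 of the 37 genes. The letters TGATGNAA, on either strand (TTNCATCA in the reverse orientation), were present for 9 of the 31 genes (29%), against 1219 of 27031 genes with a window (4.51%). The palindrome TGACGTCA, the cAMP response element, was present for 1 of the 31 (3.23%, Ppp1r15a) and for 549 of 27031 genes (2.03%). The 9 genes were Atf3, Nupr1, Trib3, Chac1, Asns, Pycr1, Slc1a4, Aars and Gars, and Aars held the letters at 2 positions. A match of letters is a description of the window, not of binding. The 37 genes were chosen as genes of the ATF4 program, and that choice by itself can raise the share with the composite element. The sequences of 7 genes are shown, 5′ to 3′ on the strand of the gene, because each holds a match to the motif, which allows any base at the N, and together they differ in direction between the KD groups. Capitals mark the match.
Trib3: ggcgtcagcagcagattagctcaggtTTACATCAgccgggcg
Chac1: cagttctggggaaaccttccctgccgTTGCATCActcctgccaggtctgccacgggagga
Slc1a4: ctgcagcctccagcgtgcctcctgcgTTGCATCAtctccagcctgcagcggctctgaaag
Asns: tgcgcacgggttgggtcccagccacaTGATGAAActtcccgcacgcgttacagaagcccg
Gars: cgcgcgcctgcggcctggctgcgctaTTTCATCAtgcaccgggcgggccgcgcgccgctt
Atf3: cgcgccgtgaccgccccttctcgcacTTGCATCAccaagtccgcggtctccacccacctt
Pycr1: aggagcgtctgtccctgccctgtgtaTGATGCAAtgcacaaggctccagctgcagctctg
These segments lie at chr2:152344031-152344072 on the minus strand for Trib3, chr2:119351023-119351082 on the plus strand for Chac1, chr11:20332684-20332743 on the minus strand for Slc1a4 and chr6:7693199-7693258 on the minus strand for Asns. The others lie at chr6:55037945-55038004 on the plus strand for Gars, chr1:191183410-191183469 on the minus strand for Atf3 and chr11:120643818-120643877 on the minus strand for Pycr1. The first base of the match lay 193 bases before the RefSeq start for Chac1, 110 before for Atf3, 103 before for Pycr1, 30 before for Gars, 23 before for Asns and 4 before for Slc1a4, and 15 bases after it for Trib3. The 9 genes with a match did not all move one way. Trib3, Chac1, Slc1a4, Asns, Gars and Aars fell in ORP5/8 KD and rose in CDC50A KD cells. Nupr1 fell in ORP5/8 KD cells and did not pass in the other KD groups. Atf3 fell in all 3 KD groups and Pycr1 rose in all 3. Pycr1 was thus the only one of these 9 genes that did not fall in ORP5/8 KD cells. Of all 37 genes 25 fell there, and of all tested genes 24.3%. Sequence outside the windows was not searched, and a link between the match and the direction was not tested.

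The 6 transcription factors all fell in ORP5/8 KD cells, with a median log2 fold change of -0.49. In ATP11A/C KD cells 1 rose and 2 fell (median -0.06), and in CDC50A KD cells 1 rose and 3 fell (median -0.06). For this and the roles below, 22% of all tested genes rose and 24.3% fell in ORP5/8 KD cells. The shares were 17.4% and 20.2% in ATP11A/C KD and 24.3% and 26.1% in CDC50A KD cells. The rises in ATP11A/C KD and CDC50A KD cells lie near or below those shares. Atf4 itself (chromosome 15, 80255184 to 80257541, plus strand, mm10) encodes the central factor of the program. Its level was 216, 206, 216 and 215 CPM in ORP5/8 KD, 290, 303, 285 and 292 in ATP11A/C KD libraries, 285, 284, 302 and 314 in CDC50A KD and 279, 285, 286 and 289 in Parental libraries. The ORP5/8 KD libraries lay below all others, while the other groups overlapped. Against Parental, the log2 fold change of Atf4 was -0.42 ± 0.0392 SE in ORP5/8 KD (edgeR adjusted p = 1.53e-08), 0.04 ± 0.039 in ATP11A/C KD (adjusted p = 0.484) and 0.06 ± 0.0391 in CDC50A KD cells (adjusted p = 0.228). Atf4, Atf5, Chac1, Slc1a4 and Asns are given library by library by a choice made after their values were seen.

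Ddit3 (chromosome 10, 127290774 to 127296288, plus strand) encodes CHOP, a factor that ATF4 induces and that promotes cell death under long stress. It was lowest in ORP5/8 KD libraries, at 6.10, 5.34, 6.22 and 5.45 CPM, with 9.40, 10.6, 11.3 and 8.78 CPM in ATP11A/C KD libraries, 10.3, 10.2, 9.83 and 12.9 in CDC50A KD and 12.6, 14.2, 14.4 and 15.5 in Parental libraries. No ORP5/8 KD or ATP11A/C KD library reached a Parental library, while 1 CDC50A KD library did. The edgeR log2 fold change was -1.29 ± 0.102 SE in ORP5/8 KD (edgeR adjusted p = 8.95e-10), -0.50 ± 0.0979 in ATP11A/C KD (adjusted p = 3.77e-04) and -0.38 ± 0.0981 in CDC50A KD cells (adjusted p = 0.00276). Exons of Ddit3 overlap those of other gene records over 81 bp on the opposite strand and 105 bp on its own strand, and whether the counting used strand is not given in the sources used here, beyond a strand-marking kit and a table labelled as stranded. Overlaps with exons on the opposite strand were longer for Slc6a9 (1986 bp), Eif2ak3 (485 bp), Psph (452 bp) and Atf5 (164 bp), and Aars shares 1326 bp with genes on its own strand.

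Atf3, a stress-induced factor that acts with ATF4 and CHOP and also restrains inflammatory genes in macrophages, fell in all 3 KD groups. It had 46.3, 47.5, 48.9 and 48.1 CPM in ORP5/8 KD, 40.7, 37, 35.9 and 38.7 in ATP11A/C KD libraries, 31.7, 31.7, 31.8 and 34.2 in CDC50A KD and 67.6, 75.3, 68.5 and 72.3 in Parental libraries. The 4 groups did not overlap, and CDC50A KD cells, in which most of the program was high, had the least Atf3. On the log2 scale, the fold change was -0.57 ± 0.0478 SE in ORP5/8 KD (edgeR adjusted p = 2.3e-09), -0.90 ± 0.0485 in ATP11A/C KD (adjusted p = 3.37e-12) and -1.13 ± 0.0493 in CDC50A KD cells (adjusted p = 1.25e-13).

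Atf5, a paralog of ATF4 that is likewise translated more under stress, moved in opposite directions. It had 20.5, 21.2, 24.2 and 26 CPM in ORP5/8 KD, 53.3, 44.7, 50.7 and 45 in ATP11A/C KD libraries, 58.7, 59.0, 61.2 and 51.5 in CDC50A KD and 37.5, 40.1, 30.8 and 34.7 in Parental libraries. The Parental libraries lay between the others, above every ORP5/8 KD library and below every library of the other KD groups. Against Parental cells, the log2 fold change was -0.64 ± 0.0863 SE in ORP5/8 KD (edgeR adjusted p = 2.92e-06), 0.44 ± 0.0837 in ATP11A/C KD (adjusted p = 2.87e-04) and 0.68 ± 0.0837 in CDC50A KD cells (adjusted p = 9.47e-07). Cebpg, a C/EBP partner of ATF4, had log2 fold changes of -0.28 in ORP5/8 KD cells and -0.15 in CDC50A KD cells, which passed, and -0.11 in ATP11A/C KD cells, which did not. Without Parental replicate 3 its call in CDC50A KD cells was lost (adjusted p = 0.0928). Nupr1, a stress-induced nuclear protein, fell in ORP5/8 KD cells (log2 fold change -0.36, adjusted p = 9.88e-05) and had -0.01 and 0.03 in ATP11A/C KD and CDC50A KD cells, which did not pass.

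Of the 8 kinases and feedback regulators, 2 rose and 4 fell in ORP5/8 KD, 3 rose and 1 fell in ATP11A/C KD, and 5 rose and none fell in CDC50A KD cells. Their median log2 fold change was -0.18 in ORP5/8 KD cells, 0.06 in ATP11A/C KD cells and 0.27 in CDC50A KD cells. The rises in ORP5/8 KD and the fall in ATP11A/C KD cells lie near or below the shares over all tested genes (22% and 20.2%). Eif2ak3, which encodes PERK, passed in none of the 6 comparisons, with group means of 32.0 ± 0.73 CPM in ORP5/8 KD, 31.0 ± 1.02 in ATP11A/C KD, 31.2 ± 1.77 in CDC50A KD and 30.7 ± 0.977 in Parental cells. Under upper-quartile scaling it was called higher in ORP5/8 KD cells (0.14). Eif2ak4, which encodes GCN2, the sensor of uncharged tRNA, rose in ORP5/8 KD (log2 fold change 0.35, adjusted p = 2.97e-07) and ATP11A/C KD cells (0.15, adjusted p = 0.00583) and had -0.07 in CDC50A KD cells, which did not pass.

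Trib3 (chromosome 2, 152337422 to 152344032, minus strand) encodes a pseudokinase that ATF4 and CHOP induce and that feeds back on ATF4. Its libraries had 4.13, 4.53, 5.01 and 4.83 CPM in ORP5/8 KD, 12.6, 15.1, 12.2 and 14.2 in ATP11A/C KD libraries, 14.9, 16.9, 19.0 and 19.6 in CDC50A KD and 12.3, 15.1, 12.3 and 15.3 in Parental cells. The ORP5/8 KD libraries stood far below all others, the ATP11A/C KD libraries lay in nearly the same range as the Parental libraries, and the CDC50A KD libraries overlapped its upper end. The edgeR log2 fold change was -1.57 ± 0.108 SE in ORP5/8 KD (edgeR adjusted p = 9.49e-11), -0.03 ± 0.0999 in ATP11A/C KD (adjusted p = 0.861) and 0.35 ± 0.0993 in CDC50A KD cells (adjusted p = 0.00542).

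Chac1, whose enzyme degrades glutathione, had 2.26, 3.13, 4.08 and 3.92 CPM in ORP5/8 KD, 6.90, 6.91, 7.27 and 5.77 in ATP11A/C KD libraries, 8.88, 9.94, 9.62 and 11.2 in CDC50A KD and 6.28, 6.16, 6.89 and 6.15 in Parental libraries. The ORP5/8 KD libraries lay below and the CDC50A KD libraries above all the rest. On the log2 scale, the fold change was -0.92 ± 0.137 SE in ORP5/8 KD (edgeR adjusted p = 1.03e-05), 0.08 ± 0.13 in ATP11A/C KD (adjusted p = 0.671) and 0.64 ± 0.128 in CDC50A KD cells (adjusted p = 2.99e-04).

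Stc2, which encodes the secreted glycoprotein stanniocalcin-2, went the other way in ORP5/8 KD cells. Its level was 31.7, 36.2, 35.9 and 36.7 CPM in ORP5/8 KD, 24.7, 19.1, 20.02 and 19.7 in ATP11A/C KD libraries, 17.8, 18.0, 18.8 and 23.6 in CDC50A KD and 12.3, 11.1, 11.6 and 10.8 in Parental libraries. Every KD library lay above every Parental library, and every ORP5/8 KD library above every other. Against Parental cells, the log2 fold change was 1.61 ± 0.0935 SE in ORP5/8 KD (edgeR adjusted p = 5.28e-12), 0.86 ± 0.0948 in ATP11A/C KD (adjusted p = 2.47e-07) and 0.77 ± 0.0956 in CDC50A KD cells (adjusted p = 1.1e-06).

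The remaining regulators changed less. Ppp1r15a, which encodes GADD34, the subunit that directs dephosphorylation of eIF2-alpha, fell in ORP5/8 KD cells (log2 fold change -0.46, edgeR adjusted p = 3.99e-05) and had -0.11 in CDC50A KD cells, which did not pass. In ATP11A/C KD cells it stood at -0.19 with an adjusted p of 0.049, and that call was lost under 11 alternatives (adjusted p 0.0511 to 0.201), among them leaving out any 1 Parental library or ATP11A/C KD replicate 2 or 3. Eif4ebp1, a repressor of cap-dependent translation, fell in ORP5/8 KD (-0.30, adjusted p = 0.00512), had 0.04 in ATP11A/C KD and rose in CDC50A KD cells (0.34, adjusted p = 0.00169). Sesn2, a leucine sensor that restrains mTORC1, rose in ATP11A/C KD (0.46, adjusted p = 2.76e-05) and CDC50A KD cells (0.20, adjusted p = 0.0267) and had -0.05 in ORP5/8 KD cells. The call of Sesn2 in CDC50A KD cells was lost without CDC50A KD replicate 2, 3 or 4 or Parental replicate 1 or 3 (adjusted p 0.0597 to 0.118).

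**Figure D2:**
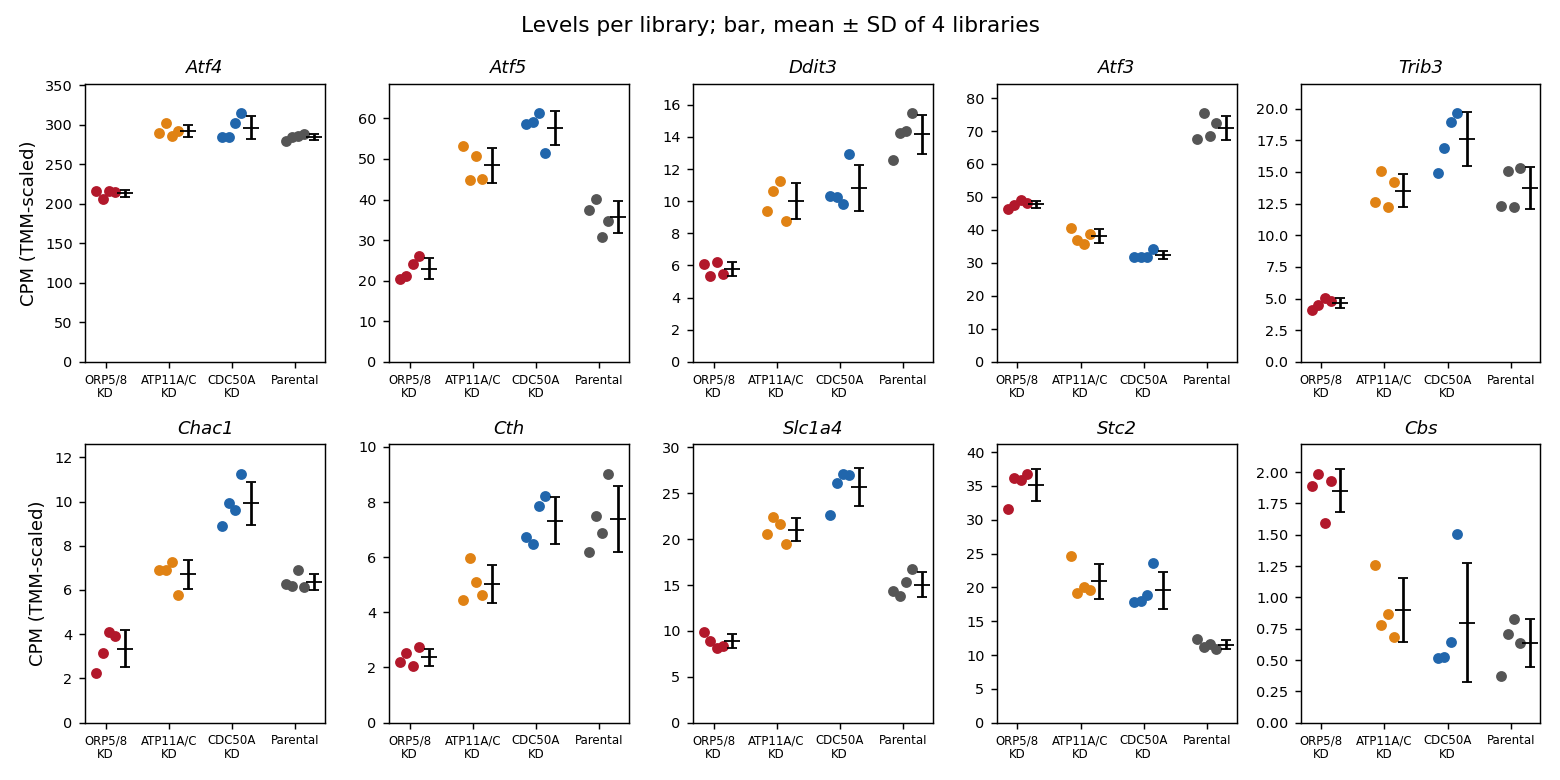
Level in CPM (vertical axes, from 0) of the genes given library by library other than Asns, with 1 point per library and bars for the mean and SD of 4 libraries, for ORP5/8 KD, ATP11A/C KD, CDC50A KD and Parental cells from left to right. Trib3 averages 4.63 CPM in ORP5/8 KD and 13.7 CPM in Parental cells, while Stc2 averages 35.1 CPM in ORP5/8 KD and 11.5 CPM in Parental cells.

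The 11 enzymes of serine, one-carbon and amino acid synthesis split in ORP5/8 KD cells, where 3 rose and 5 fell (median log2 fold change 0.00). In ATP11A/C KD cells 4 rose and 1 fell (median 0.10), and in CDC50A KD cells 9 rose and none fell (median 0.33). The rises of these enzymes in ORP5/8 KD and the fall in ATP11A/C KD cells lie near or below the shares over all tested genes (22% and 20.2%). Per kilobase of exon, this group held the most abundant transcripts of the 37 in Parental cells, at 176 CPM per kb for Shmt2, 148 for Phgdh and 145 for Psat1, and also the scarcest, at 1.14 for Pycr1 and 0.0849 for Cbs.

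Asns, the asparagine synthetase gene and a textbook target of ATF4, had 120, 116, 116 and 115 CPM in ORP5/8 KD, 168, 186, 173 and 174 in ATP11A/C KD libraries, 189, 217, 210 and 205 in CDC50A KD and 158, 166, 158 and 173 in Parental libraries. The ORP5/8 KD libraries lay below and the CDC50A KD libraries above all others. The edgeR log2 fold change was -0.49 ± 0.0465 SE in ORP5/8 KD (edgeR adjusted p = 1.83e-08), 0.10 ± 0.0462 in ATP11A/C KD (adjusted p = 0.0998) and 0.33 ± 0.0462 in CDC50A KD cells (adjusted p = 6.29e-06).

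The serine pathway did not move as one in ORP5/8 KD cells. Phgdh, its entry enzyme, had a log2 fold change of 0.03 there (edgeR adjusted p = 0.686), Psat1, the next enzyme, rose by 0.14 (adjusted p = 0.00341), and Psph, the last, fell by 0.37 (adjusted p = 2.38e-04). In CDC50A KD cells all of these rose, by 0.35 for Phgdh, 0.31 for Psat1 and 0.36 for Psph. In ATP11A/C KD cells Phgdh (0.14, adjusted p = 0.0387) and Psat1 (0.10, adjusted p = 0.042) passed and Psph (0.09) did not. The Phgdh call was lost with the replicate block and without ATP11A/C KD replicate 1 or 3 or Parental replicate 1, 3 or 4 (adjusted p 0.0511 to 0.141). The Psat1 call was lost under 7 alternatives, among them leaving out ATP11A/C KD replicate 1 or 4 or Parental replicate 1 or 3 (adjusted p 0.0517 to 0.145).

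The mitochondrial folate enzymes also differed from each other. Shmt2, which passes one-carbon units from serine to folate, had 0.08 in ORP5/8 KD cells (adjusted p = 0.215), and rose in ATP11A/C KD (log2 fold change 0.26, edgeR adjusted p = 3.69e-04) and CDC50A KD cells (0.42, adjusted p = 5.96e-07). Under upper-quartile scaling Shmt2 was called higher in ORP5/8 KD cells (0.15). Mthfd2, the next enzyme of that pathway, fell in ORP5/8 KD (-0.54, adjusted p = 1.82e-08), had -0.10 in ATP11A/C KD and rose in CDC50A KD cells (0.21, adjusted p = 0.00168).

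The enzymes that turn glutamate into proline are Aldh18a1 at the start and Pycr1 at the end. Aldh18a1 had log2 fold changes of 0.00 in ORP5/8 KD and 0.06 in ATP11A/C KD cells and rose by 0.29 in CDC50A KD cells (edgeR adjusted p = 1.56e-05). Pycr1 averaged 6.84 ± 0.311 CPM in ORP5/8 KD, 7.40 ± 0.761 in ATP11A/C KD, 6.94 ± 0.685 in CDC50A KD and 4.49 ± 0.748 in Parental cells, and rose on the log2 scale by 0.60 in ORP5/8 KD cells, 0.72 in ATP11A/C KD cells and 0.62 in CDC50A KD cells. Gpt2, the mitochondrial alanine aminotransferase, fell by 0.20 in ORP5/8 KD cells (adjusted p = 0.00381, and 0.0539 under upper-quartile scaling), had -0.05 in ATP11A/C KD cells and rose by 0.18 in CDC50A KD cells (adjusted p = 0.00729).

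Cth and Cbs, the enzymes that carry sulfur from homocysteine to cysteine, moved apart in ORP5/8 KD cells. Cth (chromosome 3, 157894248 to 157925077, minus strand) had 2.18, 2.52, 2.06 and 2.74 CPM in ORP5/8 KD, 4.45, 5.98, 5.09 and 4.62 in ATP11A/C KD libraries, 6.74, 6.48, 7.84 and 8.23 in CDC50A KD and 6.18, 7.50, 6.89 and 9.01 in Parental libraries. The ORP5/8 KD libraries were lowest, the ATP11A/C KD libraries next, and the CDC50A KD and Parental libraries overlapped. The log2 fold change of Cth was -1.64 ± 0.135 SE in ORP5/8 KD (edgeR adjusted p = 1.95e-09), -0.56 ± 0.127 in ATP11A/C KD (adjusted p = 0.00147) and -0.01 ± 0.124 in CDC50A KD cells (adjusted p = 0.953). Cbs (chromosome 17, 31608894 to 31637238, minus strand) had 1.89, 1.98, 1.60 and 1.93 CPM in ORP5/8 KD, 1.26, 0.781, 0.864 and 0.682 in ATP11A/C KD libraries, 0.515, 0.525, 0.643 and 1.5 in CDC50A KD and 0.37, 0.71, 0.83 and 0.63 in Parental libraries. It was the scarcest of the 37 genes, with 294 counts over the ORP5/8 KD libraries and 82 over the Parental libraries, and the ORP5/8 KD libraries lay above all others. Its log2 fold change was 1.54 ± 0.303 SE in ORP5/8 KD (adjusted p = 2.63e-04), 0.51 ± 0.324 in ATP11A/C KD (adjusted p = 0.23) and 0.37 ± 0.331 in CDC50A KD cells (adjusted p = 0.371).

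Among the 7 amino acid transporters, 1 rose and 5 fell in ORP5/8 KD (median log2 fold change -0.22), 3 rose and none fell in ATP11A/C KD (median 0.07), and 5 rose and none fell in CDC50A KD cells (median 0.30). The rise in ORP5/8 KD cells is below the share over all tested genes (22%). Slc1a4, a carrier of serine, alanine and cysteine, had 9.91, 8.94, 8.18 and 8.40 CPM in ORP5/8 KD, 20.5, 22.4, 21.7 and 19.5 in ATP11A/C KD libraries, 22.6, 26.1, 27.1 and 27.0 in CDC50A KD and 14.4, 13.8, 15.3 and 16.8 in Parental libraries. The 4 groups did not overlap. On the log2 scale, the fold change was -0.76 ± 0.0825 SE in ORP5/8 KD (edgeR adjusted p = 1.25e-07), 0.48 ± 0.0787 in ATP11A/C KD (adjusted p = 4.72e-05) and 0.77 ± 0.0786 in CDC50A KD cells (adjusted p = 7.57e-08). Its paralog Slc1a5, which carries glutamine, fell by 0.22 in ORP5/8 KD cells (adjusted p = 2.99e-04), had 0.01 in ATP11A/C KD cells and rose by 0.18 in CDC50A KD cells (adjusted p = 0.00223).

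Slc7a5 and Slc3a2 encode the light and heavy chains of a carrier of large neutral amino acids. Slc7a5 fell by 0.16 on the log2 scale in ORP5/8 KD cells (edgeR adjusted p = 0.0232), and rose by 0.16 in ATP11A/C KD (adjusted p = 0.029) and 0.42 in CDC50A KD cells (adjusted p = 4.28e-06). Its call in ORP5/8 KD cells was lost under upper-quartile scaling and without ORP5/8 KD replicate 1, 2 or 4 or Parental replicate 1 or 2 (adjusted p 0.0552 to 0.18). The call in ATP11A/C KD cells was lost with the compared groups alone and without ATP11A/C KD replicate 1, 3 or 4 or Parental replicate 3 or 4 (adjusted p 0.0544 to 0.128). Slc3a2 fell by 0.22 in ORP5/8 KD cells (adjusted p = 1.53e-04) and had log2 fold changes of -0.00 and 0.08 in ATP11A/C KD and CDC50A KD cells, which did not pass. The arginine and lysine carrier Slc7a1 fell in ORP5/8 KD (-0.37, adjusted p = 8.73e-07), had 0.03 in ATP11A/C KD and rose in CDC50A KD cells (0.30, adjusted p = 1.71e-05). Slc38a2, a carrier of small neutral amino acids, was the transporter that rose in ORP5/8 KD cells (0.32, adjusted p = 1.47e-06), and had 0.07 and 0.06 in ATP11A/C KD and CDC50A KD cells, which did not pass. The glycine carrier Slc6a9 had 0.10 in ORP5/8 KD cells (adjusted p = 0.148) and rose in ATP11A/C KD (0.31, adjusted p = 1.68e-04) and CDC50A KD cells (0.35, adjusted p = 3.72e-05); under upper-quartile scaling it was called higher in ORP5/8 KD cells too (0.18).

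All 5 tRNA synthetases, which charge tRNAs with alanine (Aars), glycine (Gars), asparagine (Nars), serine (Sars) and tryptophan (Wars), fell in ORP5/8 KD and rose in CDC50A KD cells. Their log2 fold changes in ORP5/8 KD cells were -0.29 for Aars, -0.17 for Gars, -0.37 for Nars, -0.37 for Sars and -0.15 for Wars (median -0.29). In CDC50A KD cells they were 0.24 for Aars, 0.28 for Gars, 0.13 for Nars, 0.14 for Sars and 0.26 for Wars (median 0.24). No library of either KD group overlapped the Parental libraries for any of these genes. In ATP11A/C KD cells Wars rose by 0.11 (edgeR adjusted p = 0.0356) and Nars fell by 0.15 (adjusted p = 0.00144). Aars (0.09), Gars (0.08) and Sars (-0.10) did not pass there. That 1 rise and 1 fall among 5 genes lie near the shares over all tested genes (17.4% and 20.2%). The call of Wars was lost in ORP5/8 KD cells under upper-quartile scaling (adjusted p = 0.122) and in ATP11A/C KD cells under 8 alternatives, among them leaving out ATP11A/C KD replicate 1 or 4 or Parental replicate 2, 3 or 4 (adjusted p 0.0505 to 0.114).

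**Figure D3:**
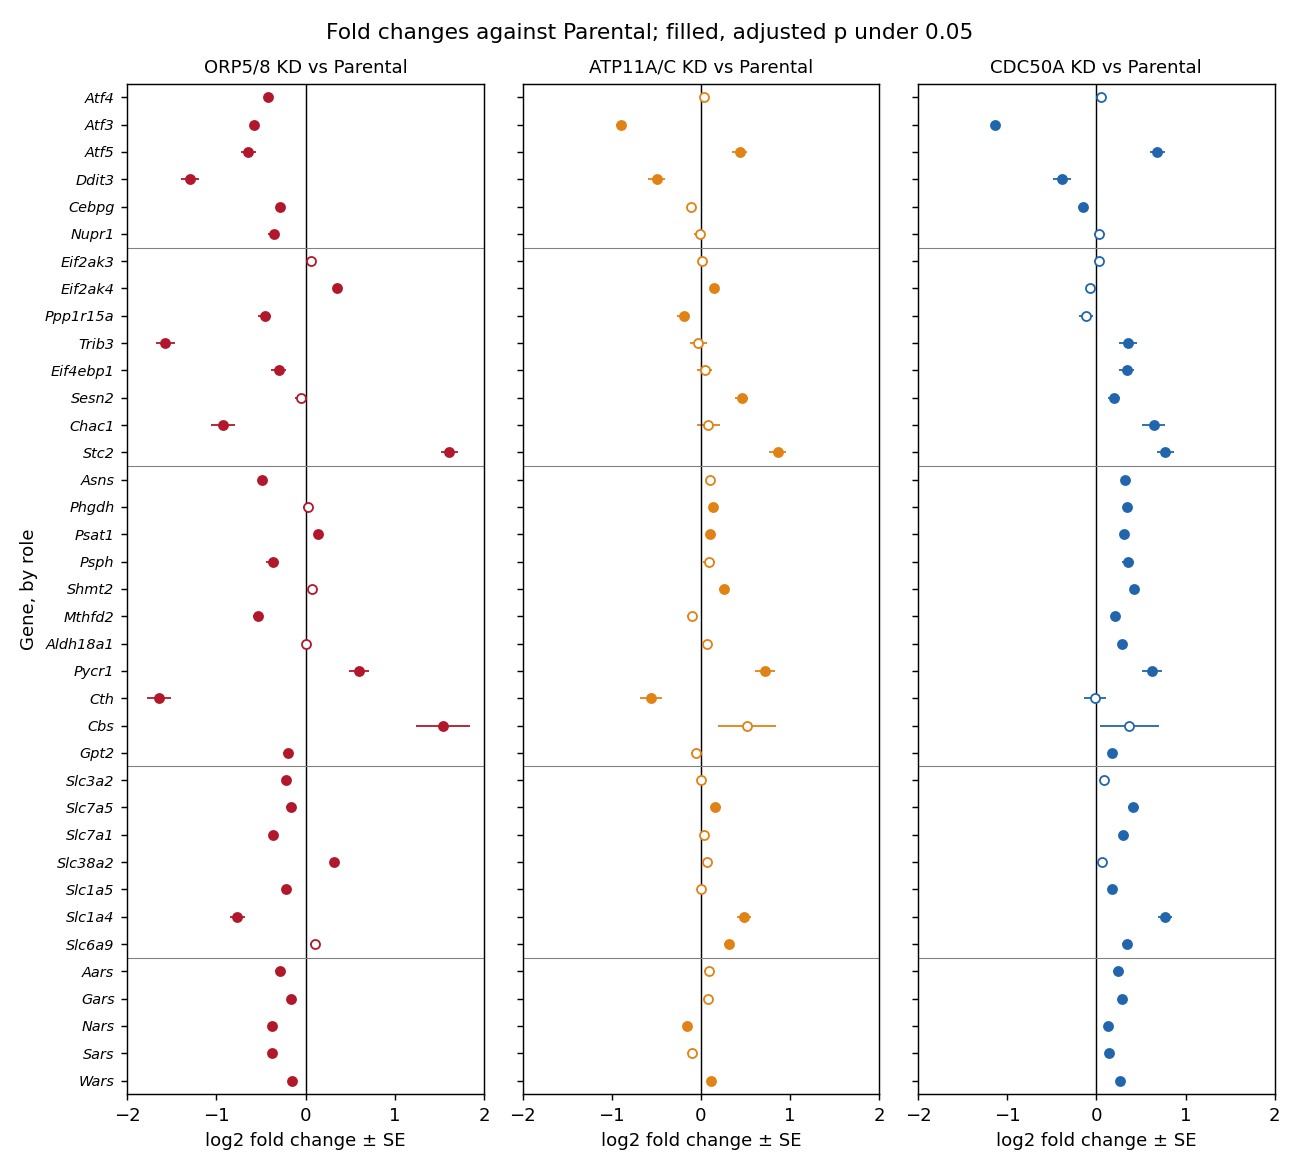
Log2 fold change with its SE (horizontal axes) of each of the 37 genes, by role, in ORP5/8, ATP11A/C and CDC50A KD against Parental cells, with filled points for an adjusted p under 0.05. Most points lie left of 0 for ORP5/8 KD cells, near 0 for ATP11A/C KD cells and right of 0 for CDC50A KD cells.

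The KD groups were also compared with each other in the same fit, so the Parental libraries enter the filter, the scaling and the estimate of spread but not the fold change. Fitting the 2 compared groups alone gave 29 lower and 5 higher genes for ORP5/8 KD against CDC50A KD, 26 and 5 for ORP5/8 KD against ATP11A/C KD, and 3 and 20 for CDC50A KD against ATP11A/C KD. Between ORP5/8 KD and CDC50A KD cells, 30 of 37 genes were lower and 5 higher in ORP5/8 KD cells, where 29.4% of all tested genes were lower and 27.5% higher. The median log2 fold change of the 37 genes was -0.40, against -0.01 over all genes. Trib3 (-1.93 ± 0.107 SE), Cth (-1.63 ± 0.135), Chac1 (-1.57 ± 0.134), Slc1a4 (-1.54 ± 0.0809) and Atf5 (-1.33 ± 0.0853) were lower by more than 2-fold, with edgeR adjusted p from 1.68e-12 for Slc1a4 to 3.76e-09 for Chac1. The 5 genes higher in ORP5/8 KD cells were Cbs (1.17), Stc2 (0.84), Atf3 (0.56), Eif2ak4 (0.43) and Slc38a2 (0.26).

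Between ORP5/8 KD and ATP11A/C KD cells, 27 genes were lower and 5 higher in ORP5/8 KD cells, where 20.4% of all tested genes were lower and 18.2% higher. The median log2 fold change was -0.26, against -0.00 over all genes. Trib3 (-1.55 ± 0.108 SE), Slc1a4 (-1.25 ± 0.0809), Cth (-1.08 ± 0.137), Atf5 (-1.08 ± 0.0852) and Chac1 (-1.01 ± 0.135) were lower by more than 2-fold, and Cbs (1.03 ± 0.284) was higher by as much. Atf4 was lower by 0.45 on the log2 scale (edgeR adjusted p = 6.42e-09).

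Between CDC50A KD and ATP11A/C KD cells, 22 genes were higher and 3 lower in CDC50A KD cells, where 13.5% of all tested genes were higher and 12.7% lower. The median log2 fold change was 0.17, against 0.01 over all genes, and no gene differed by 2-fold. Chac1 (0.56 ± 0.127 SE, edgeR adjusted p = 0.00293), Cth (0.55 ± 0.127, adjusted p = 0.00355) and Trib3 (0.38 ± 0.0988, adjusted p = 0.00756) differed most among the genes higher in CDC50A KD cells. The lower ones were Sesn2 (-0.26), Atf3 (-0.23) and Eif2ak4 (-0.22). Atf4 stood at 0.02 ± 0.039, which did not pass (adjusted p = 0.745). Of the 37 genes, 27 had group means in the order ORP5/8 KD, ATP11A/C KD, CDC50A KD, lowest first. How many of all tested genes had that order was not counted. It is an order of means only, and includes genes such as Atf4 that did not pass between CDC50A KD and ATP11A/C KD cells.

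Other genes of the same and neighbouring pathways were read from 4 lists, beside shares over all tested genes of 22% higher and 24.3% lower in ORP5/8 KD, 17.4% and 20.2% in ATP11A/C KD, and 24.3% and 26.1% in CDC50A KD cells. The first held 26 other integrated stress response and ATF4 target genes, of which 22 were tested. Of these, 4 rose and 5 fell in ORP5/8 KD and 6 rose and 6 fell in ATP11A/C KD cells. In CDC50A KD cells 11 rose and 8 fell. Their median log2 fold change was -0.05 for ORP5/8 KD, -0.01 for ATP11A/C KD and 0.09 for CDC50A KD. For the 37 genes it was -0.28 for ORP5/8 KD, 0.07 for ATP11A/C KD and 0.26 for CDC50A KD. The counts in ORP5/8 KD cells lie close to the shares over all genes. Eif2ak2, which encodes PKR, the eIF2-alpha kinase that senses double-stranded RNA and is induced by interferon, averaged 84.7 ± 7.52 CPM in ORP5/8 KD, 140 ± 7.36 in ATP11A/C KD, 159 ± 9.23 in CDC50A KD and 233 ± 8.19 in Parental cells. It fell on the log2 scale by 1.46 in ORP5/8 KD cells, 0.74 in ATP11A/C KD cells and 0.55 in CDC50A KD cells. Herpud1, which acts in degradation of misfolded proteins of the endoplasmic reticulum, fell by 0.20 in ORP5/8 KD cells and rose by 0.47 in ATP11A/C KD cells and 0.72 in CDC50A KD cells. Shmt1, the cytosolic counterpart of Shmt2, rose by 0.25 in ORP5/8 KD cells, 0.57 in ATP11A/C KD cells and 0.69 in CDC50A KD cells. Ero1l, an oxidase of the endoplasmic reticulum, fell by 0.34 in ORP5/8 KD cells, 0.70 in ATP11A/C KD cells and 0.27 in CDC50A KD cells.

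Of 15 other cytosolic tRNA synthetases, 9 fell and none rose in ORP5/8 KD, 1 rose and 2 fell in ATP11A/C KD, and 8 rose and none fell in CDC50A KD cells (median log2 fold change -0.15 for ORP5/8 KD, -0.04 for ATP11A/C KD, 0.12 for CDC50A KD). Hars (-0.32) and Yars (-0.23) fell in ORP5/8 KD cells and rose in CDC50A KD cells, Hars by 0.14 and Yars by 0.18, Cars fell in ORP5/8 KD cells (-0.30), and Kars rose in CDC50A KD cells (0.29). Of the 17 mitochondrial tRNA synthetases, which serve translation inside mitochondria, 8 rose and none fell in ORP5/8 KD, 5 rose and 1 fell in ATP11A/C KD, and 3 rose and 3 fell in CDC50A KD cells (median 0.13 for ORP5/8 KD, 0.11 for ATP11A/C KD, 0.03 for CDC50A KD). Both counts of the mitochondrial list in CDC50A KD cells are below the shares over all genes. So are both counts of the other cytosolic list in ATP11A/C KD cells. In ORP5/8 KD cells Vars2 rose by 0.64, Wars2 by 0.42 and Tars2 by 0.25.

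The ATF6 and XBP1 arm of the unfolded protein response induces chaperones and degradation factors of the endoplasmic reticulum without eIF2-alpha phosphorylation. Of its 16 listed genes, 2 rose and 12 fell in ORP5/8 KD, 14 rose and 1 fell in ATP11A/C KD, and 14 rose and none fell in CDC50A KD cells (median log2 fold change -0.27 for ORP5/8 KD, 0.27 for ATP11A/C KD, 0.44 for CDC50A KD). Creld2, Manf and Edem1 passed the test in all 3 comparisons. In ORP5/8 KD cells the log2 fold change was -0.43 for Creld2, -0.48 for Manf and -0.73 for Edem1. For ATP11A/C KD cells it was 0.53 for Creld2, 0.48 for Manf and 0.30 for Edem1, and for CDC50A KD cells 0.89 for Creld2, 0.75 for Manf and 0.47 for Edem1. Dnajc3 rose in ATP11A/C KD (0.34) and CDC50A KD cells (0.74) and had -0.06 in ORP5/8 KD cells, which did not pass.

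**Figure D4:**
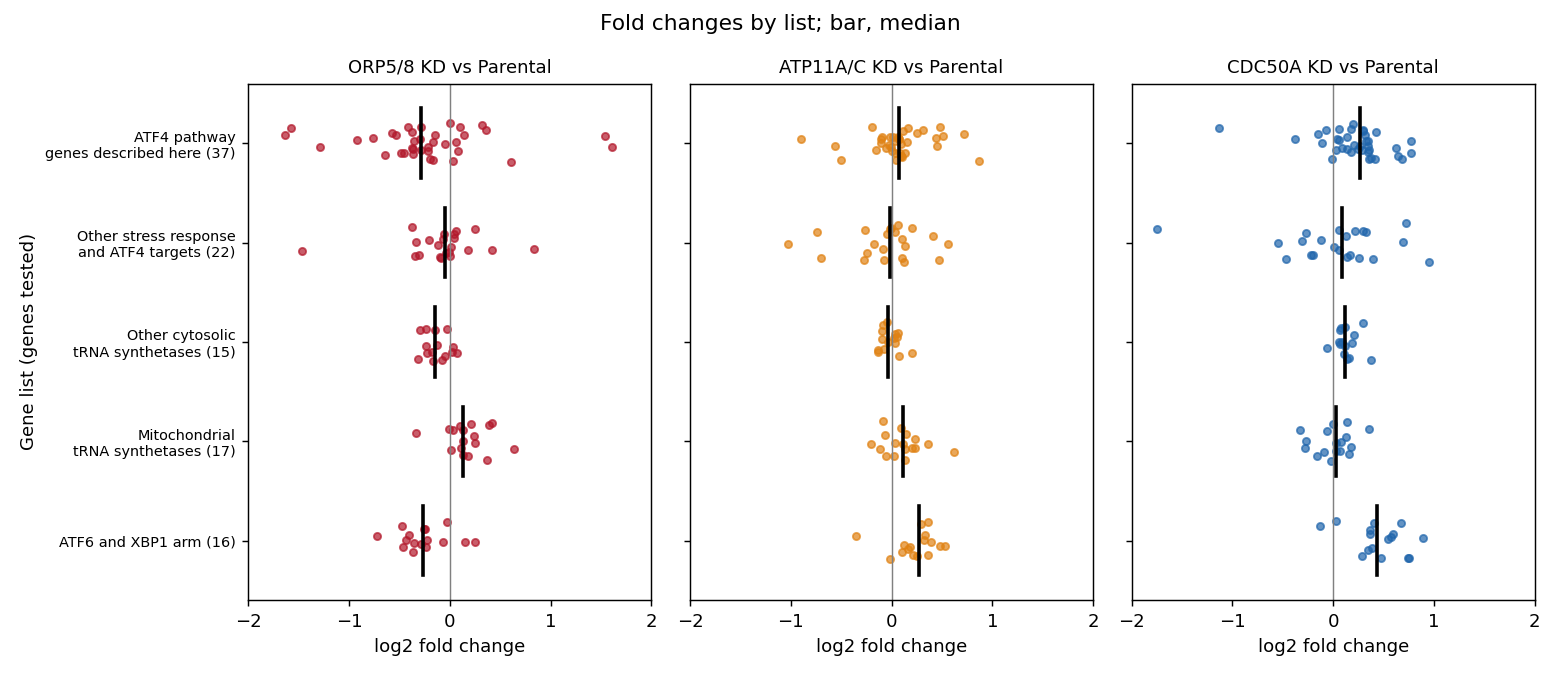
Log2 fold changes against Parental cells of the genes in the 37-gene program and in the 4 other lists, for ORP5/8, ATP11A/C and CDC50A KD cells, with 1 point per tested gene and a bar for the median. The median of the ATF6 and XBP1 list is -0.27 for ORP5/8 KD, 0.27 for ATP11A/C KD and 0.44 for CDC50A KD cells, and that of the mitochondrial tRNA synthetases is 0.13, the highest of the lists, for ORP5/8 KD cells.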

How the data were processed

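RNA of RAW264.7 cells was sequenced in 16 libraries, 4 per group, grouped by their labels. Per the submitters' processing notes, the tools were Trim Galore 0.5.0, STAR 2.7.5a, Picard and RSEM, with build mm10. The authors deposited RSEM expected counts per gene, of which 4.63% carry decimals; a read shared between similar genes can be split, and these values were rounded to whole counts. Genes were kept by filterByExpr (minimum count 10), libraries were scaled by TMM, and all 6 contrasts came from 1 edgeR 4.0.16 quasi-likelihood fit over the 4 groups (R 4.3.3, limma 3.58.1), with Benjamini-Hochberg adjustment over all 13107 genes in each contrast and a threshold of 0.05. The biological coefficient of variation was 6.86%. CPM are the TMM-scaled values, and SE belongs to the log2 fold change. The steps were tested on simulated data. Alternatives were DESeq2 1.42.0 (its size factors, and its Wald test), upper-quartile scaling, other filters, the compared groups alone, a replicate block and leaving out each library.

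The genes and lists were chosen with earlier results of these data known. Genes called with at least a 2-fold change in a KD group against Parental are given library by library, and of each other list the 4 called genes with the smallest adjusted p are named, except results that are not reported here. Gene coordinates and exon lengths are from GENCODE M21 (mm10), and promoter sequences from RefSeq (GRCm38.p6). No pair of libraries within a group differed by as little as sampling noise (chi-square per degree of freedom 4.85 to 45.0 over 24 pairs).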

Additional observations from a re-analysis of the deposited data

Results flagged for a closer look

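In 12 of 148 sets of 4 libraries (37 genes in 4 groups), the highest or lowest library stood apart from the other 3 by the Dixon gap test; chance gives about 1 in 20. Lowest libraries that stood apart were ORP5/8 KD replicate 2 for Atf4 (206 CPM), ATP11A/C KD replicate 1 for Nupr1 (14.2 CPM), ORP5/8 KD replicate 4 for Eif2ak3 (31.0 CPM), ATP11A/C KD replicate 4 for Eif2ak4 (41.5 CPM) and Parental replicate 2 for Slc38a2 (476 CPM). Highest libraries that stood apart were CDC50A KD replicate 4 for Atf3 (34.2 CPM), Ddit3 (12.9 CPM) and Cbs (1.5 CPM). The same held for ATP11A/C KD replicate 1 for Eif4ebp1 (91.6 CPM) and Stc2 (24.7 CPM), ORP5/8 KD replicate 1 for Asns (120 CPM) and ORP5/8 KD replicate 2 for Psat1 (702 CPM).

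In 22 cases a gene was called in opposite directions against Parental in 2 KD groups, and the direct comparison of these KD groups was called as well. The direct fold change comes from the same fit and is the difference of the 2 changes against Parental. Its call is therefore not separate evidence. Such cases were not counted over all tested genes. Between ORP5/8 KD and ATP11A/C KD cells the direct log2 fold change was -1.08 for Atf5, -0.33 for Slc7a5, -1.25 for Slc1a4 and -0.26 for Wars. Between ORP5/8 KD and CDC50A KD cells it was -1.33 for Atf5, -1.93 for Trib3, -0.64 for Eif4ebp1, -1.57 for Chac1, -0.81 for Asns, -0.72 for Psph, -0.75 for Mthfd2 and -0.38 for Gpt2. In that comparison it was -0.58 for Slc7a5, -0.66 for Slc7a1, -0.40 for Slc1a5 and -1.54 for Slc1a4, and -0.53 for Aars, -0.45 for Gars, -0.50 for Nars, -0.51 for Sars and -0.41 for Wars. Between CDC50A KD and ATP11A/C KD cells it was 0.28 for Nars.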

How the results depend on the processing

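No called fold change of the 37 genes changed direction under any alternative run, and every count of genes called stayed within 1.5 times its reported value. Over all 6 comparisons and 7 other settings, 1518 of 1554 gene results kept their side of the threshold, 29 lost and 7 gained a call. With 1 library left out, 1702 of 1776 kept it, 68 lost and 6 gained a call. Leaving out 1 library gave 24 to 25 genes lower in ORP5/8 KD, 8 to 13 higher in ATP11A/C KD and 24 to 25 higher in CDC50A KD against Parental cells. Of the genes called against Parental, 28 of 31 in ORP5/8 KD, 12 of 17 in ATP11A/C KD and 26 of 28 in CDC50A KD kept their call throughout. Between KD groups, 34 of 35 kept it for ORP5/8 KD against CDC50A KD and 30 of 32 for ORP5/8 KD against ATP11A/C KD. For CDC50A KD against ATP11A/C KD 21 of 25 did. Calls lost most often there were Cebpg in the first of these (13 alternatives), Gpt2 in the second (10) and Aars in the last (7). Upper-quartile scaling gave 9 higher and 22 lower genes in ORP5/8 KD, 14 and 4 in ATP11A/C KD, and 25 and 3 in CDC50A KD; the cause was not tested. That scaling moved the share of higher genes among all called genes to 63.3%, against 47.5% reported, for ORP5/8 KD against Parental, to 60.5% against 47.2% for ORP5/8 KD against ATP11A/C KD, and to 60.7% against 48.4% for ORP5/8 KD against CDC50A KD. A replicate block gave 6 higher and 25 lower genes in ORP5/8 KD, 10 and 4 in ATP11A/C KD, and 25 and 3 in CDC50A KD. Replicate numbers did not pair the libraries: 3 of 24 same-numbered pairs had a correlation of deviations over 0.1, and 5 of 16 libraries correlated best with their own number. Depth limits Cbs most, with 82 counts over the Parental libraries.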
